A study of Mus musculus with 8 samples.

Results

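The interferon-stimulated genes examined here are 43 mouse genes given as a list of names, from the transcription factors that switch on the interferon response to the antiviral proteins it produces. Each was matched by gene name to the probes of an Agilent array, and 58 probes carried one of the 43 names. A probe was tested if 4 or more of the 8 arrays showed it well above background by the scanner software's call, and a gene with several such probes was represented by the brightest. By this rule 41 of the 43 genes were tested, among 23608 genes and unnamed probes in all. Irf7 and Mx1 were too dim.

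The arrays measured total RNA of the hippocampus. The anti-CD4 group (n = 4) had received an anti-CD4 antibody, which binds a receptor carried by helper T cells, and the control group (n = 4) with a control antibody. All 8 samples came from female C57BL6/J mice aged 8 weeks that had been housed for 4 weeks in an enriched environment, per the labels. The comparison addresses whether removing CD4-positive T cells alters gene expression in the hippocampus. No label gives the antibody clone or dose, or says that each sample was a separate animal, so p-values rest on a spread between samples that may be technical only.

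Interferons are cytokines that cells release on sensing viral nucleic acid or on immune activation. Type I interferons signal through the receptor chains Ifnar1 and Ifnar2 and the kinases Jak1 and Tyk2, which activate a complex containing Stat2 and Irf9 that binds the interferon-stimulated response element in promoters. Interferon gamma, a product of activated T and natural killer cells, signals through Ifngr1 and Ifngr2 and acts on promoters at the gamma-activated site. In the brain, microglia, endothelial cells, astrocytes and neurons can all respond, and a low level of many of these transcripts is present without infection. In whole-tissue RNA, fewer cells of a type and less RNA per cell cannot be told apart.

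The promoters of 34 of the 43 genes were found in a table of RefSeq sequences (GRCm38.p6), each a window of 300 bases around a start site. The core of the response element, taken as GAAA, any 2 bases and GAAA again, on either strand, was present for 19 of the 34 (55.9%), against 3.99% of 27025 genes in the table. The core of the gamma-activated site, TTCNNNGAA, which reads the same on both strands, was present for 14 of the 34 (41.2%), against 9.55% of all genes. The 2 motifs can share bases. A match is a description of the letters in the window and not a measured binding site. The 200 bases before the start site follow, 5′ to 3′ on the gene's strand, for 4 genes whose 2 groups of arrays did not overlap and, for comparison, for Isg15 and Ifit1, whose groups overlapped. Capitals mark the letters of a motif.
Irf8 (chr8:120736158-120736357, plus strand): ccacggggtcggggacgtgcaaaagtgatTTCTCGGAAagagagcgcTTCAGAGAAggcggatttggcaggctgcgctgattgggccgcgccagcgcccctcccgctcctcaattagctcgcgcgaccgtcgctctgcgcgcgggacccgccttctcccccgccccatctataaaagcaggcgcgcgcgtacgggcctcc
Irgm2 (chr11:58214777-58214976, plus strand): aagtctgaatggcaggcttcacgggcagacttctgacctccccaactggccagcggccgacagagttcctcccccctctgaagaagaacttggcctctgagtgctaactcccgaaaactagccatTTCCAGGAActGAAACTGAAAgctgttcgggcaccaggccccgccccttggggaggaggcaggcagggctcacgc
Irgm1 (chr11:48871421-48871620, minus strand): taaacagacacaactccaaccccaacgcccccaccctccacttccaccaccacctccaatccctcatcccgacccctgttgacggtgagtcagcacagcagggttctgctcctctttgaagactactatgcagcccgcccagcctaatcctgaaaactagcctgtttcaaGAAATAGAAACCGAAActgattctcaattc
Rsad2 (chr12:26456453-26456652, minus strand): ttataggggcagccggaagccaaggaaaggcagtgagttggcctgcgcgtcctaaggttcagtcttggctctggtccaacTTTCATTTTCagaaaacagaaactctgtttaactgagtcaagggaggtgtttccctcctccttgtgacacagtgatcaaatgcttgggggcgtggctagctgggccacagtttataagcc
Isg15 (chr4:156200819-156201018, minus strand): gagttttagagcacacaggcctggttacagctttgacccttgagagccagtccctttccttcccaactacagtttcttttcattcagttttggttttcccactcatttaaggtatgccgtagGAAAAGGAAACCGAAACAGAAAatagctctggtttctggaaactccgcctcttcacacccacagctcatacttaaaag
Ifit1 (chr19:34640689-34640888, plus strand): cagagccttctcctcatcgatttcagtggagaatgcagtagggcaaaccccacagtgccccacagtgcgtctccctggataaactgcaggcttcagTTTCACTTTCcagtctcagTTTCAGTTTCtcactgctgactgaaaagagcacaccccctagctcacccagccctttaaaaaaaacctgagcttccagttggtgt
Irf8 held the gamma-activated core at 2 positions and no response-element core in these bases, and its table has 2 windows, of which the first is shown. Irgm2 held both motifs side by side. Irgm1, Isg15 and Ifit1 held 2, 3 and 2 copies of the response-element core, those of Irgm1 and Isg15 overlapping, and Rsad2 held 1.

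The arrays shared 1 slide and 1 scan, with anti-CD4 arrays in one slide row and control arrays in the other, so the slide row cannot be told apart from the treatment. Each array showed 51.1% to 54.3% of its probes well above background, no probe was saturated, and the number of arrays limits the precision. Outlier-flagged spots numbered 127 to 179 on the anti-CD4 arrays and 98 to 124 on the control arrays. Cd4 itself differed by 0.02 on the log2 scale (adjusted p = 0.950, limma), so these arrays give no measure of the depletion. Of the 8 neuronal markers used to check the tissue, among them Prox1, Neurod6, Fibcd1 and Wfs1, all were well above background on enough arrays to be tested.

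Levels are given as log2 of a probe's signal over the 75th percentile of its array, so a level of 0 equals that percentile. Each difference is the anti-CD4 mean minus the control mean. No interferon-stimulated gene passed an adjusted p of 0.05 in limma, and none of the 23608 rows did (0%). The smallest adjusted p among the 41 genes was 0.210. An unadjusted p under 0.05 was found for 11 of the 41 genes (26.8%), all 11 higher in the anti-CD4 group. Over all rows 13.0% had an unadjusted p under 0.05, 6.17% on the higher side and 6.83% on the lower side. Of the 41 genes 30 were above and 11 below controls, where 51.8% of all rows were above. Their median difference was 0.17, against 0.0068 over all rows. The 4 anti-CD4 arrays all lay above the 4 control arrays for 7 of the 41 genes (17.1%), against 3.82% of all rows, and no gene was separated in the lower direction, against 4.36% of all rows.

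**Figure D1:**
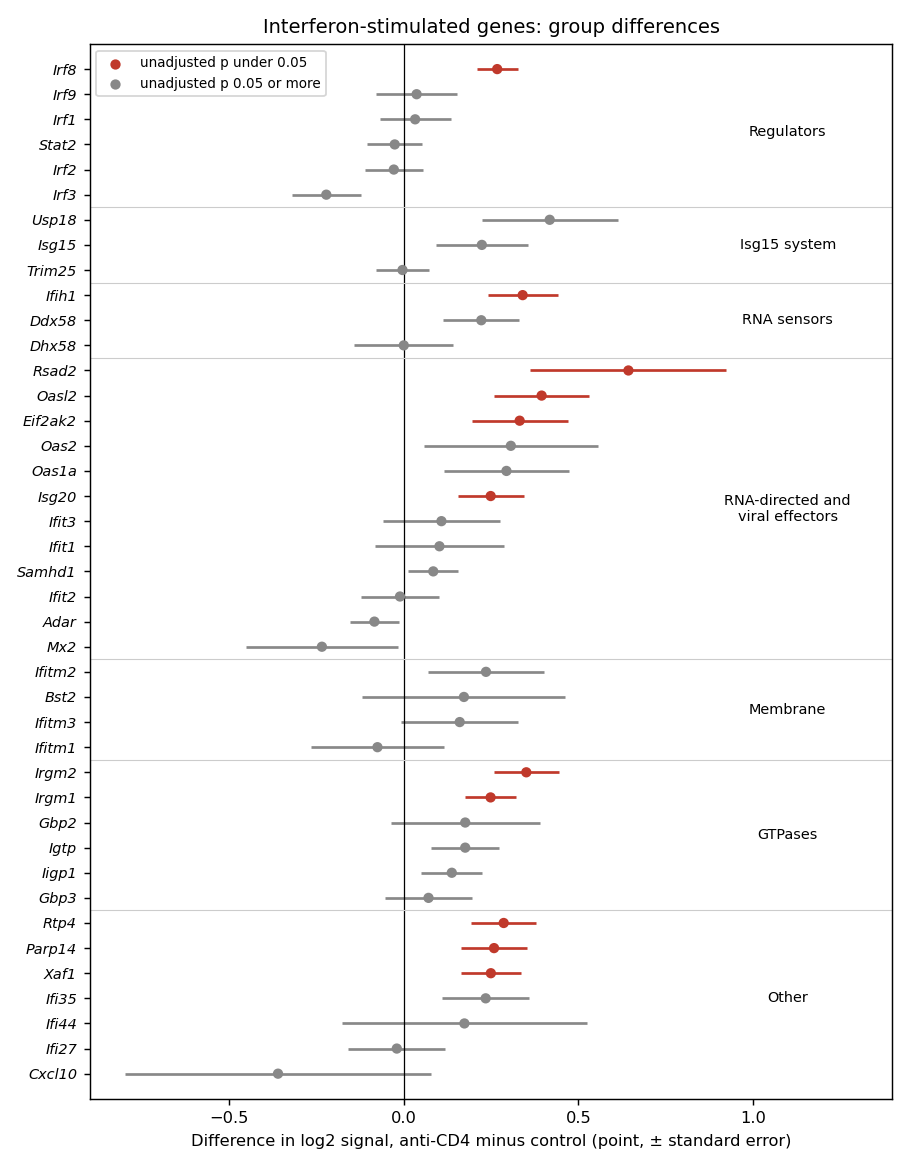
Difference in log2 signal (anti-CD4 minus control, point) with its standard error (line) for each of the 41 tested genes, grouped by role on the vertical axis. The 11 genes in red had an unadjusted p under 0.05 and lie between 0.25 and 0.64, all to the right of 0, whereas none passed after adjustment.

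The regulators of the response did not move together. Irf8, a transcription factor that myeloid cells including microglia require, had the smallest p-value of the 41. Its levels were 0.04, 0.04, 0.10 and 0.08 in the anti-CD4 group, in the order of replicates 1 to 4, and -0.21, -0.29, -0.15 and -0.16 in the control group in the same order (probe on chromosome 8, 123280324 to 123280383, mm9). The groups were separated by more than the spread within either, with a difference of 0.27 ± 0.06 (SE), or 1.204-fold (unadjusted p = 0.00163, adjusted p = 0.210, limma). The promoter of Irf8 is the one shown above with the gamma-activated core and no response-element core. Microglial markers did not share the shift: 0 of 13 had an unadjusted p under 0.05, their median difference was 0.09, and their summed signal was 356 to 405 times the 75th percentile in anti-CD4 arrays and 339 to 363 times in control arrays.

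Irf3, the factor that starts interferon production after nucleic acid sensing, lay on the other side. It read 3.15, 2.82, 3.08 and 2.83 in the anti-CD4 replicates and 3.28, 3.24, 3.21 and 3.04 in the controls, a difference of -0.22 ± 0.10 (SE; unadjusted p = 0.0518, adjusted p = 0.389, limma). Anti-CD4 replicates 1 and 3 fell inside the control range and replicates 2 and 4 below it. Stat2, a transcription factor of the type I response, read 1.33, 1.14, 1.29 and 1.16 in the anti-CD4 replicates and 1.13, 1.39, 1.24 and 1.27 in the controls, so the groups overlapped fully. Its difference was -0.03 (adjusted p = 0.910), and those of Irf1, Irf2 and Irf9 were 0.03, -0.03 and 0.04, with Irf1 and Irf9 at -0.01 and -0.04 without control replicate 3.

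Irf7, the factor that amplifies interferon production once the response has begun, was near the limit of detection. Its probe (chromosome 7, 148450664 to 148451014, mm9) read -4.13, -4.24, -4.31 and -3.71 in the anti-CD4 replicates and -4.97, -4.40, -4.83 and -4.60 in the controls. It was well above background on 3 anti-CD4 arrays and on no control array. The anti-CD4 mean of -4.10, which includes an array not called well above background, was 1.23-fold above a control level. That level was set per control array by the higher of its own signal, mean -4.70, and the lowest signal that array called well above background. The ratio holds no measure of the spread between arrays. Irf7 was not in the main test. With no filter on dim probes its adjusted p was 0.612 in limma. Mx1, which encodes an antiviral GTPase, was well above background on no array.

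The ubiquitin-like modifier Isg15 and the protease Usp18 that removes it are among the most interferon-responsive genes. Usp18 read -2.23, -2.34, -2.63 and -2.14 in the anti-CD4 replicates and -2.74, -2.55, -3.31 and -2.41 in the controls. Control replicate 3 was the lowest of the 8, and the groups overlapped. The difference was 0.42 ± 0.19 (SE; unadjusted p = 0.0617, adjusted p = 0.409, limma), 0.23 without control replicate 3, and 0.26 and 0.20 with another background correction (normexp) and with the authors' table. Isg15 read 0.75, 0.59, 0.39 and 0.95 in the anti-CD4 replicates and 0.43, 0.46, 0.26 and 0.64 in the controls, a difference of 0.22 ± 0.13 (adjusted p = 0.496), or 0.13 with the authors' table and also without anti-CD4 replicate 4. These groups overlapped as well, although the promoter of Isg15 held 3 copies of the response-element core. Trim25, the ubiquitin ligase that acts on RIG-I, differed by -0.0037.

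Of the 3 cytoplasmic RNA sensors, Ifih1 (MDA5, a sensor of long double-stranded RNA) was separated between groups. It read -1.84, -1.83, -1.58 and -1.45 in the anti-CD4 replicates and -1.93, -2.02, -2.10 and -2.02 in the controls (probe on chromosome 2, 62435507 to 62435566, mm9). The lowest anti-CD4 array stood close to the highest control array, and replicates 3 and 4 carried most of the difference of 0.34 ± 0.10 (SE), or 1.27-fold (unadjusted p = 0.0085, adjusted p = 0.256, limma). Ddx58, which encodes RIG-I, differed by 0.22 (unadjusted p = 0.0731), and its relative Dhx58, which encodes LGP2, by -3.36e-05.

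Effectors that act on RNA or on viral replication formed the largest group, with 12 of 13 tested. Of these, 9 (75%) were above controls, against 51.8% of all rows. An unadjusted p under 0.05 was found for 4 (33.3%), all higher, against 6.17% of all rows on that side. Rsad2, which encodes the antiviral enzyme viperin, had the largest difference of the 41 genes in the main setting, though not with normexp or the authors' table. It read -3.09, -3.03, -3.09 and -3.10 in the anti-CD4 replicates and -3.69, -3.43, -4.64 and -3.12 in the controls (probe on chromosome 12, 27127859 to 27127918, mm9). The groups were separated by a narrow margin, the anti-CD4 arrays lay close together, and control replicate 3 stood far below the other controls. The probe was well above background on 4 anti-CD4 and 3 control arrays. The difference was 0.64 ± 0.28 (SE; unadjusted p = 0.0491, adjusted p = 0.383, limma), and 0.34 without control replicate 3, 0.25 with normexp and 0.13 with the authors' table.

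Isg20, an RNA exonuclease, was separated too. It read -1.08, -1.49, -1.38 and -1.40 in the anti-CD4 replicates and -1.67, -1.57, -1.59 and -1.51 in the controls (probe on chromosome 7, 86065136 to 86065195, mm9), a difference of 0.25 ± 0.09 (SE; unadjusted p = 0.0282, adjusted p = 0.331, limma). Anti-CD4 replicate 1 stood apart above the rest, the difference was 0.16 without it, and the mean of the gene's 2 tested probes differed by 0.14. Oasl2, a relative of the oligoadenylate synthetases that sense double-stranded RNA, read -0.83, -0.92, -1.36 and -0.94 in the anti-CD4 replicates and -1.18, -1.40, -1.63 and -1.43 in the controls. Only anti-CD4 replicate 3 fell inside the control range, and the difference was 0.39 ± 0.14 (unadjusted p = 0.0184, adjusted p = 0.294). Eif2ak2, which encodes the kinase PKR that halts translation on double-stranded RNA, read -2.90, -2.52, -2.43 and -2.51 in the anti-CD4 replicates and -2.94, -2.74, -3.22 and -2.77 in the controls. Here replicate 1 was the anti-CD4 array inside the control range, and the difference was 0.33 ± 0.14 (unadjusted p = 0.0407, adjusted p = 0.360), or 0.18 with the authors' table.

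The classical effectors of the same kind were less clearly apart, with unadjusted p-values above 0.05. Oas1a and Oas2 differed by 0.29 and 0.31 (adjusted p = 0.512 and 0.619, limma), while the Ifit genes, whose proteins bind foreign RNA 5′ ends, differed by 0.10 (Ifit1), -0.01 (Ifit2) and 0.11 (Ifit3), although Ifit1 and Ifit3 both hold the response-element core. Without control replicate 3 the Ifit values were -0.0050 (Ifit1), -0.09 (Ifit2) and -0.0038 (Ifit3). A dimmer probe of Oas1a was well above background on 3 anti-CD4 and 0 control arrays. Its mean was -4.08 in anti-CD4 arrays and -4.90 in controls, and 1.17-fold above a control level set as for Irf7. Samhd1, which depletes nucleotides, and Adar, the RNA-editing enzyme, differed by 0.08 and -0.08, and Mx2 by -0.23, or -0.38 without control replicate 3.

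The membrane proteins of the list, which restrict virus entry or release, had no member with an unadjusted p under 0.05. Ifitm2 read -0.28, -0.14, -0.14 and 0.09 in the anti-CD4 replicates and 0.02, -0.44, -0.79 and -0.19 in the controls, and Ifitm3 read 0.89, 0.82, 0.55 and 0.89 in the anti-CD4 replicates against 0.98, 0.82, 0.22 and 0.49 in the controls. In both genes control replicate 3 was the lowest array and control replicate 1 lay among the highest, so the groups overlapped and the differences of 0.24 and 0.16 (adjusted p = 0.570 and 0.704, limma) were within the spread. Without control replicate 3 they were 0.09 and 0.02. Bst2 (tetherin, which holds budding virus at the cell surface) read 0.30, 0.68, 1.11 and 0.68 in the anti-CD4 replicates and 1.02, 0.40, -0.28 and 0.94 in the controls. Its difference of 0.17 (adjusted p = 0.824) turned to -0.09 without control replicate 3 and to -0.01 with the choroid plexus gene Ttr as a covariate. Ifitm1 differed by -0.08, or -0.19 without control replicate 3. Sequences of the Ifitm genes are alike, so a probe of one may read another.

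The 6 immunity-related and guanylate-binding GTPases of the list, which attack vacuoles of intracellular pathogens and are strongly induced by interferon gamma, were above controls, as were 51.8% of all rows, by 0.07 (Gbp3) to 0.35 (Irgm2), though Gbp3 turned to -0.02 with normexp and also without control replicate 3. Irgm2 read -0.87, -0.88, -0.76 and -0.83 in the anti-CD4 replicates and -1.11, -1.01, -1.43 and -1.18 in the controls (probe on chromosome 11, 58036093 to 58036152, mm9). The anti-CD4 arrays lay close together above every control array, with a difference of 0.35 ± 0.09 (SE), or 1.28-fold (unadjusted p = 0.00512, adjusted p = 0.247, limma). Irgm1, a regulator of the other GTPases and of autophagy, read 0.24, 0.15, 0.15 and 0.10 in the anti-CD4 replicates and 0.01, -0.16, -0.21 and 0.0033 in the controls (chromosome 11, 48679069 to 48679128, mm9). These groups did not overlap either, with a difference of 0.25 ± 0.07 (unadjusted p = 0.0086, adjusted p = 0.257). The call on Irgm1 rests on 1 probe, since a second, dimmer probe of the gene differed by -0.10 and the mean of both by 0.07. Igtp, Gbp2 and Iigp1 differed by 0.18, 0.18 and 0.14, with adjusted p of 0.473, 0.751 and 0.527. Without control replicate 3, Igtp and Gbp2 differed by 0.11 and 0.05. Gbp5, a further guanylate-binding gene outside the list, lay on the other side at -0.10 (adjusted p = 0.694).

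**Figure D2:**
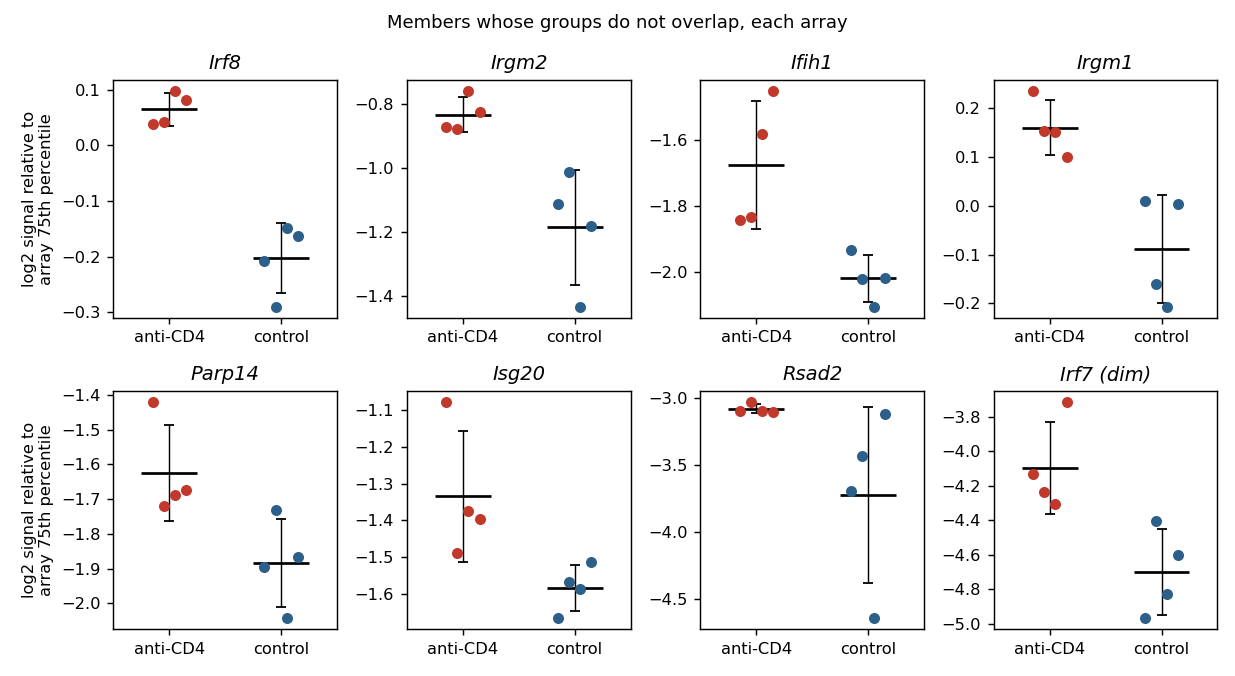
Log2 signal relative to the array's 75th percentile on each array (points) with the group mean and SD (bars, n = 4), for the 7 tested genes whose groups did not overlap and for Irf7, whose probe was too dim to be tested. In Irf8 the gap between the groups is wider than the range of either group, whereas in Rsad2 the control spread comes mostly from replicate 3 at -4.64.

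Of the 7 remaining genes, Rtp4, Xaf1 and Parp14 (42.9%) had unadjusted p-values under 0.05, all higher, against 6.17% of all rows on that side. Parp14, a mono-ADP-ribosyltransferase, read -1.42, -1.72, -1.69 and -1.67 in the anti-CD4 replicates and -1.90, -1.73, -2.04 and -1.87 in the controls (chromosome 16, 35832992 to 35833051, mm9), a difference of 0.26 ± 0.09 (SE; adjusted p = 0.318, limma), or 0.12 with the authors' table. Its groups were separated, but anti-CD4 replicate 2 and control replicate 2 differed by little. Rtp4, a chaperone of G protein-coupled receptors, read 0.33, 0.33, 0.01 and 0.22 in the anti-CD4 replicates and -0.07, -0.04, -0.20 and 0.06 in the controls, with replicate 3 the anti-CD4 array inside the control range and a difference of 0.29 ± 0.09 (adjusted p = 0.281). Xaf1, a proapoptotic antagonist of XIAP, read -0.62, -0.93, -0.74 and -0.64 in the anti-CD4 replicates and -0.938, -0.903, -0.998 and -1.089 in the controls, with replicate 2 inside the control range and a difference of 0.25 ± 0.09 (adjusted p = 0.295). Ifi35 and Ifi44 differed by 0.23 and 0.17, and Ifi27 by -0.02. Without control replicate 3 these values were 0.15, 0.00023 and -0.11. Cxcl10, the chemokine that draws T cells through Cxcr3, differed by -0.36 (adjusted p = 0.751), a value that was -0.11 after normexp and -0.08 in the authors' table. Its values ran from -3.57 to -2.25 in anti-CD4 arrays and from -3.34 to -1.38 in control arrays.

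Across the 41 genes control replicate 3 stood out. It was the lowest of the 8 arrays for 22 genes (53.7%), although it was the lowest for 6.94% of all rows. Its median deviation from the gene means was -0.28 over the interferon-stimulated genes and 0.03 over all rows, whereas the other controls ranged from -0.03 to 0.02 and the anti-CD4 arrays from 0.01 to 0.18. Without control replicate 3, the median difference was 0.09 and 26 genes were above controls. Of the 11 genes with an unadjusted p under 0.05, 7 then remained, namely Irf8, Irgm2, Ifih1, Irgm1, Rtp4, Xaf1 and Rsad2. Without anti-CD4 replicate 1 the number was also 7, of which 6 were among the 11, and Oasl2, Xaf1, Parp14, Isg20 and Rsad2 were lost. Within the anti-CD4 group replicate 3 was the lowest of all 8 arrays for 8 genes (19.5%), near the 15.2% of all rows. These were Oas1a, Oas2, Adar, Mx2, Ifit1, Ifi44, Ifitm1 and Cxcl10. Replicate 3 was the highest for another 8 (19.5%, against 11.1% of all rows), Irf8, Irgm2 and Bst2 among them. Anti-CD4 replicates 1 and 4 were each the highest for 10 genes (24.4%), against 15.8% and 12.8% of all rows. Each was the lowest for 0 genes, against 7.20% and 11.2% of all rows.

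**Figure D3:**
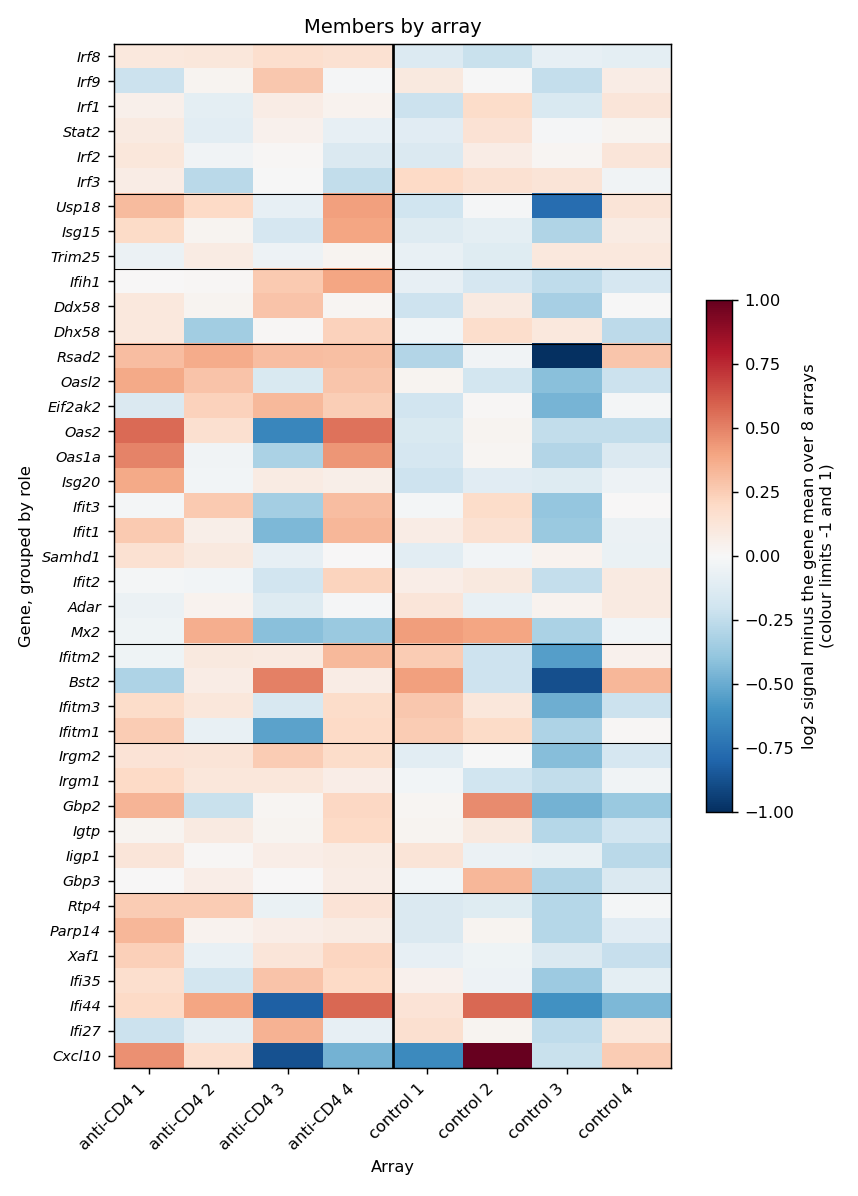
Log2 signal of each of the 41 genes (rows, grouped by role) on each array (columns, anti-CD4 left of the line) minus the gene's mean over 8 arrays; red is above and blue below that mean. Control replicate 3 is blue in most rows, and anti-CD4 replicate 3 is blue in the Oas and Ifit rows but red for Irgm2 and Ifih1.

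**Figure D4:**
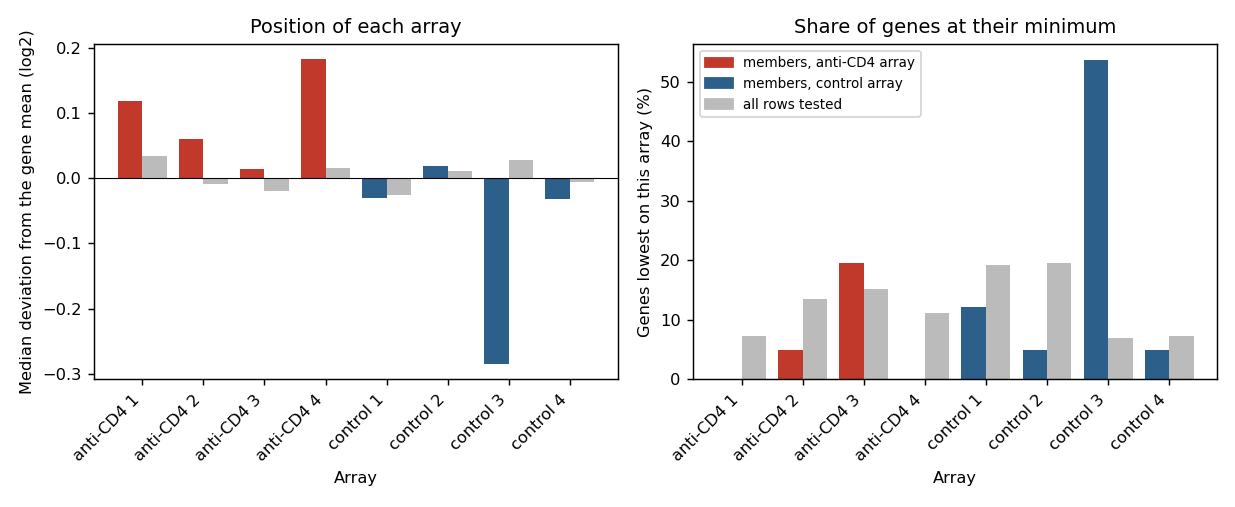
Median deviation from the gene means (left, log2) and share of genes that had their lowest value on an array (right, %), for the 41 genes (coloured bars) and all rows tested (grey bars). Control replicate 3 stands at -0.28 and holds the minimum of 53.7% of the genes, against 6.94% of all rows.

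Markers of other cells were measured on the same arrays, and a list's summed signal is given in multiples of the 75th percentile. Control replicate 3 had the lowest signal of Ttr, a choroid plexus gene, at -0.46, but anti-CD4 replicate 1 and control replicate 2 were low as well (1.22 and 2.72, against 7.60 to 8.48 on the other 5 arrays). The median deviation of the interferon-stimulated genes was 0.12 and 0.02 on those 2 arrays. With Ttr as a covariate 10 genes had an unadjusted p under 0.05 and the median difference was 0.14, with Ifitm2 at 0.14 and Bst2 at -0.01. The part of choroid plexus content in the low values of control replicate 3 was not tested. The summed signal of 11 choroid plexus markers ran from 4.83 to 434 in anti-CD4 arrays and from 2.55 to 359 in controls. Endothelial markers were higher in 9 of 11 and lower in 2, where 51.8% of all rows were higher, with a median difference of 0.23. An unadjusted p under 0.05 was found in 6 of the 11, all higher, against 6.17% of all rows on that side. The groups did not overlap in 5 of the 11, all higher, against 3.82% of all rows and 17.1% of the interferon-stimulated genes. Their summed signal was 42.5 to 49.0 in anti-CD4 arrays and 39.8 to 44.6 in controls. Red blood cell genes were higher in 5 of 5 tested, all 5 with an unadjusted p under 0.05, against 6.17% of all rows on that side. The groups did not overlap in 4 of them, against 3.82% of all rows. Their median difference was 0.52 and their smallest adjusted p 0.177 (limma), against 0.17 and 0.210 among the interferon-stimulated genes. Their summed signals were 113 to 133 and 72.9 to 109 in anti-CD4 and control arrays. Of 14 blood leukocyte markers 7 were tested, all 7 above controls with a median difference of 0.25, larger than that of the interferon-stimulated genes. None of them had an unadjusted p under 0.05, with S100a8, S100a9 and Ptprc at 0.88, 0.80 and 0.28. The T-cell genes Lck and Cd3e were among those tested and differed by 0.25 and 0.01, Cd79a by 0.14 and Nkg7 by 0.05. Cd3d, Cd3g, Cd8a, Ms4a1 and Ccr2 were among those too dim. Ly6c2 had no probe. The summed signal of the 7 tested was 3.38 to 4.52 in anti-CD4 arrays and 3.11 to 3.77 in controls. Meningeal fibroblast markers had 0 of 8 below that p, with 31.3 to 40.3 and 31.5 to 40.0. Of the 8 neuronal markers 7 were lower and 1 higher, with a median difference of -0.21. An unadjusted p under 0.05 was found in 3, all lower, Neurod6 and Prox1 among them, against 6.83% of all rows on that side. Their summed signals were 200.01 to 223 in anti-CD4 arrays and 206 to 224 in controls. Snap25, the brightest of the 8, differed by -0.0076. The part of endothelial cells, leukocytes, other blood and neurons in the differences above was not tested.

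The other genes of the pathway gave a smaller shift. Of 90 further pathway genes 62 were tested, 37 above and 25 below controls with a median of 0.05, and none passed the adjusted threshold. An unadjusted p under 0.05 was seen in 5 (8.06%), 4 higher and 1 lower, a share below that of all rows. Among the ligands, Ifng and Ifnb1 were well above background on no array, and 13 of 15 ligand genes were not tested. Of the 2 that were, Ifna1 differed by -0.34 (adjusted p = 0.514, limma) and Ifnl3 by 0.0020.

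The receptor chains of interferon gamma went opposite ways. Ifngr1, the ligand-binding chain, averaged 1.41 ± 0.14 in anti-CD4 arrays and 1.15 ± 0.04 in controls (SD, n = 4 each), a difference of 0.26 with no overlap (unadjusted p = 0.00898, adjusted p = 0.260, limma). Ifngr2, the accessory chain, averaged 2.64 ± 0.04 and 2.80 ± 0.09 in the anti-CD4 and control arrays, a difference of -0.16, also with no overlap (adjusted p = 0.364). Ifnar1 and Ifnar2 differed by 0.10 and 0.13, the kinase Tyk2 by -0.32 and Socs3, a feedback inhibitor of Jak signalling, by 0.38 (adjusted p of 0.426 for Tyk2 and 0.471 for Socs3). Upstream of interferon production 11 genes were tested and 0 had an unadjusted p under 0.05. Of these 4 were above and 7 below controls, where 51.8% of all rows were above, and their differences ran from -0.17 to 0.21. The smallest p-values were those of the kinase Tbk1 (-0.16), the adaptor Ticam1 (-0.17) and the receptors Tlr9 and Tlr3 (-0.10 and -0.13). Among 38 further tested interferon-response genes 25 (65.8%) were above controls, against 51.8% of all rows, and the median difference was 0.09. An unadjusted p under 0.05 was found for 3 (7.89%), all higher, a share near the 6.17% of all rows on that side. Trim30a averaged -3.05 ± 0.21 in anti-CD4 arrays and -3.51 ± 0.14 in controls, a difference of 0.46 with no overlap (adjusted p = 0.245), and Oas1c and Gbp4 differed by 0.53 and 0.40.

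The motifs shown above were set against the differences as a description. The 19 tested genes with the response-element core in their promoter window had a median difference of 0.18, with 16 above controls and 4 separated from them. The 14 tested genes with a window but without that core had a median of 0.06, with 9 above controls and 2 separated. Over all rows 51.8% were above controls and 3.82% were separated on the higher side. For the gamma-activated core the medians were 0.17 in the 14 genes with it and 0.17 in the 19 without. No test was made of these differences, since the genes share arrays and several lie in clusters of related copies.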

How the data were processed

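Hippocampal RNA was labelled with Cy3 and hybridised to one-colour Agilent arrays of design 028005. The deposited spot intensity values come from Feature Extraction 10.7.3.1, which, per the file headers, corrected each array for spatial and multiplicative trends. Arrays were not scaled to each other in these files. Probe coordinates are those of the files (mm9). The authors' deposited table holds log2 values, with column medians of 7.83 and a rank correlation of at least 0.999997 with the median spot signal of the same array, so no background subtraction is visible. The submitters' processing notes name limma.

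Control spots were dropped. Replicate spots were averaged without outlier-flagged ones, unless all were flagged. The main value is log2 of the processed signal minus the array's 75th percentile. Of 55681 probes 29406 were well above background on at least 4 arrays, which gave 23608 rows, 15890 of them with a gene name. Names were matched to RefSeq (GRCm38.p6) by accession for 27509 probes, symbol for 3549 and synonym for 404, and the name in the file was kept for 1541. Ifi27 is printed in the files under the older name Ifi27l1. The comparison used limma 3.58.1 in R 4.3.3 (lmFit, then eBayes). Its p-values are two-sided and were adjusted over all rows by Benjamini-Hochberg, with a threshold of 0.05, and the procedure was checked on simulated data.

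The list of genes, the further lists and the tests were chosen with earlier results of these data known. Genes given on every array are the 12 with the smallest p, those whose groups did not overlap, the smallest p of each role group, and Isg15, Stat2, Bst2, Ifitm3, Usp18 and Oasl2. Up to 4 genes with the smallest p were named per further list, and Ifng, Ifnb1, Ifnar1, Ifnar2 and Gbp5 were chosen after their values were seen, as were Irf7, Mx1 and the genes named only by a difference. Alternatives covered normalization, background correction, the authors' table, the filter, the probe of a gene, replicate blocks, Ttr as a covariate, variance options and each array left out. Same-numbered arrays did not deviate together: their correlations were -0.45, -0.29, -0.31 and 0.30 for numbers 1 to 4, so the numbers were not taken as pairs.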

Additional observations from a re-analysis of the deposited data

Results flagged for a closer look

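A single array stood apart from the other 3 of its group, by the gap to its nearest neighbour, in 3 of 38 groups of values examined, and chance gives about 1 in 20. Control replicate 3 stood apart in the median deviation of the 41 interferon-stimulated genes, at -0.2848. Rsad2 read -3.026 in anti-CD4 replicate 2, above -3.100 to -3.091 on the other anti-CD4 arrays, a gap that is large only against a very narrow range. Parp14 read -1.421 in anti-CD4 replicate 1, above the other anti-CD4 arrays.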

How the results depend on the processing

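No interferon-stimulated gene passed the adjusted threshold under any of the 19 alternatives, where the smallest adjusted p was 0.114. Over all rows 2 passed with the authors' table and 2 with a trended and robust variance, and 0 to 11 with 1 array left out, the 11 without anti-CD4 replicate 3. The number of the 41 genes with an unadjusted p under 0.05 ran from 7 to 14 with 1 array left out, and their median difference from 0.09 to 0.22. With the replicate block the number was 10, of which 8 were among the main 11, and the median stayed at 0.17. Among the further pathway genes the number with an unadjusted p under 0.05 was 8 with normexp, 9 with the authors' table, 8 with array weights and 3 to 9 with 1 array left out, against 5 in the main setting, and 0 passed after adjustment with an array left out. Of the 18 genes given on every array, 16 kept their direction under every alternative that tested them. Bst2 turned to -0.012 with the Ttr covariate and ran from -0.093 (without control replicate 3) to 0.337 with 1 array left out, and Stat2 ran from -0.068 to 0.017, above 0 without anti-CD4 replicate 2 or control replicate 2. The cause of these changes was not tested. Signal over background limits Irf7, Mx1, Rsad2 and Ifi44, the last of which was well above background on 3 anti-CD4 and 2 control arrays.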

Other observations

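For 7 of the 41 genes more than 1 probe was well above background, and in 4 of these (Adar, Irgm1, Samhd1 and Trim25) the probes differed in sign. Both probes of Isg15 were above controls, by 0.22 and 0.27. Those of Trim25 differed by -0.0037 and 0.19, and those of Isg20 by 0.25 and 0.02. The 2 probes of Ifitm1 differed by -0.08 each, although the files place one of them on chromosome 8 and the gene on chromosome 7. Which probe reads the gene more fully was not tested.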
